A study of Mus musculus with 14 samples.

Results

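The genes described here are 8 genes known from lymphocytes and their precursors (Rag2, Il7r, Foxo1, Notch1, Hes1, Cd22, Blnk and Il12a), chosen by symbol and measured in mouse acute myeloid leukaemia cells. Of the 8, 7 were found in both deposited tables, out of 12695 symbols that the tables share, and Hes1 is not analysed here. The study measured RNA by sequencing in 14 libraries of primary C57/BL6 leukaemia cells taken from the spleens of sick mice, and the leukaemias came from foetal liver cells placed in irradiated hosts. Every group carries a Tet-Off vector with MLL-AF9 and dsRED and a vector with NRASG12D and the Tet-Off activator, so all libraries come from the same retroviral model. In this model doxycycline turns MLL-AF9 off, and the untreated cells keep it on.

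In the doxycycline experiment, 4 libraries came from cells held in doxycycline for 4 days in vitro and 4 from untreated cells. Their titles share 4 pair labels, TRIMA2-M1B1, TRIMA2-M3B1, TRIMA2-M4B1 and TRIMA1-M4B1, called pairs 1 to 4 in that order. The doxycycline titles of pairs 1, 2 and 4 also end in -R, which no untreated title does. The meaning of this mark is not given, so it cannot be told apart from the treatment in those pairs. In the Id2 experiment, 3 libraries held cells with an Id2-GFP virus and 3 held cells with control-GFP, both sorted for GFP 2 days after transduction and numbered 1 to 3. No library had doxycycline with MLL-AF9 still on, so the drug and the loss of the oncogene cannot be told apart. The GFP sort leaves out cells that the virus did not reach, and no library of unsorted transduced cells was analysed here.

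Lymphoid development is run by E proteins, basic helix-loop-helix factors that bind E-boxes in DNA, and Id2 encodes a protein that pairs with them and keeps them from DNA. E proteins are known to act on genes of antigen receptor recombination, of interleukin-7 signalling and of the Notch pathway. RAG2 is a subunit of the recombinase that cuts antigen receptor genes, and IL7R is the receptor chain through which interleukin-7 keeps lymphoid progenitors alive. FOXO1 is a forkhead factor known to act on both Rag2 and Il7r in lymphocytes. NOTCH1 is the receptor that commits progenitors to the T lineage, CD22 is an inhibitory sialic acid receptor of B cells, BLNK is an adaptor of the B-cell receptor, and IL12A is the p35 chain of interleukin-12, a cytokine that dendritic cells and macrophages make for lymphocytes.

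The 250 bases before the RefSeq gene start (GRCm38.p6) are printed for the 3 genes with the largest changes after doxycycline, on which the comparisons turn. Capitals mark each E-box of the form CANNTG, which reads the same on both strands.
Rag2, chr2:101624462-101624711, plus strand: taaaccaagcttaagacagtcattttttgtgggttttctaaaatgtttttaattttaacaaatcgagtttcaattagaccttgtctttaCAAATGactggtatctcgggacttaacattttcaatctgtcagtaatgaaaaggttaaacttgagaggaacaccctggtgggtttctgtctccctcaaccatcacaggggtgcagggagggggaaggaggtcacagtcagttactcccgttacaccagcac
Il7r, chr15:9529877-9530126, minus strand: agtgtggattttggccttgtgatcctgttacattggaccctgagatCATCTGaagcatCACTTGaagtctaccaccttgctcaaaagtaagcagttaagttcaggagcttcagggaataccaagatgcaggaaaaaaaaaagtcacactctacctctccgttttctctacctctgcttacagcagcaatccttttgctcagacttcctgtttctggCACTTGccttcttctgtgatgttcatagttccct
Il12a, chr3:68690394-68690643, plus strand: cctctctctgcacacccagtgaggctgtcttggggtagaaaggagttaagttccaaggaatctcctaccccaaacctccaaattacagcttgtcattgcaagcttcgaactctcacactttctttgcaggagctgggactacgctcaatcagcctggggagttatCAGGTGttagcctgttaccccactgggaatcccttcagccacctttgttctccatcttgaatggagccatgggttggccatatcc
The Rag2 window held 1 E-box (CAAATG), which begins 161 bases before the gene start. The Il7r window held 3, which begin 204, 192 and 34 bases before it, and 86 of its 250 bases lie in annotated exons of the gene, as do 102 in the Cd22 window and all 250 in that of Blnk. This Il12a window, 1 of 2 for the gene, held 1 E-box, CAGGTG, 85 bases before the start, and TGGGAA, the core of the RBPJ motif through which Notch acts, 62 bases before it. The other Il12a window and that of Foxo1 held 1 E-box each, that of Cd22 held 2, that of Blnk 3 and that of Notch1 none. Of 32851 mouse promoters of the same length, 66.2% held CANNTG, with a median of 1, 31.8% held at least 2 and 12.2% at least 3. The Cd22 window also held both CAGGTG, read on the other strand as CACCTG, and TGGGAA, 245 and 145 bases before the start. That of Blnk held CAGGTG, again as CACCTG, 160 bases before it. CAGGTG was in 17.2% of promoters and TGGGAA in 21.6%. None of the 8 windows held CAGCTG (13.0% of promoters) or the forkhead motif TGTTTAC (3.17%), searched on both strands. These matches describe letters and are not sites shown to be bound.

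Each library of the doxycycline experiment held 17922644 to 25959766 reads on tabled genes, and each of the Id2 experiment 14051150 to 14948487. Reads counted on Mll1, the mouse MLL gene, ranged from 2000 to 6370 CPM (reads relative to the scaled size of the library) in untreated libraries and from 114 to 144 CPM in doxycycline. Mllt3, the AF9 gene, ranged from 234 to 811 and from 5.27 to 6.79 CPM. These counts do not separate reads of the MLL-AF9 vector from those of the cells' own genes. Id2 was at 25.8 to 51.5 CPM in control-GFP and 952 to 1630 CPM in Id2-GFP libraries. Of 20 myeloid markers, 18 were listed, and their summed level was 7700 to 12100 CPM in untreated and 32300 to 49300 CPM in doxycycline libraries, where Lyz2, the macrophage lysozyme, was the highest. Without Lyz2 the sums were 5390 to 7220 and 10900 to 16200 CPM. Of the 18, 13 rose with doxycycline, 4 fell and 1 did not pass, beside 31.3% higher and 33.8% lower over all genes. The markers that fell included Ctsg, Elane and Prtn3, serine proteases of the granules of immature myeloid cells, with log2 changes of -2.43, -1.97 and -1.35. B-cell markers were mostly not listed (3 of 20 were, Cd79b, Cd37 and Bank1), as were T-cell markers (8 of 22) and NK-cell markers (3 of 13). The summed B-cell markers rested on Cd37, which other leukocytes also express, and came to 193 to 224 CPM in untreated and 254 to 269 CPM in doxycycline libraries, or 12.0 to 25.8 and 14.1 to 29.3 CPM without Cd37. The T-cell markers summed to 201 to 220 CPM in untreated and 211 to 251 CPM in doxycycline libraries, most of it Cd28, and the NK-cell markers to 1.83 to 4.63 and 2.08 to 3.74 CPM. Of 14 plasmacytoid dendritic cell markers 10 were listed, at 604 to 724 CPM in untreated and 609 to 695 CPM in doxycycline libraries, and of these 10, 5 rose, 3 fell and 2 did not pass. Among them the RNA sensor Tlr7 rose by 2.57 on the log2 scale, and Pacsin1 and the transcription factors Runx2 and Tcf4 fell by 4.21, 1.34 and 1.23. With reads scaled by library totals alone 4 of the 10 rose and 3 fell, where 2702 of all 13406 genes rose and 6912 fell. Of 10 erythroid and megakaryocyte markers 4 were listed, at 217 to 235 and 57.5 to 75.1 CPM, most of it the transferrin receptor Tfrc. Control-GFP replicate 3 stood apart: its log2 values correlated with those of the other 5 libraries at 0.913 to 0.954, against 0.951 to 0.988 among the others. In bulk RNA, fewer cells that express a gene and less RNA per cell cannot be told apart.

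The first comparison asked how the lymphoid genes changed when doxycycline turned MLL-AF9 off. The recombinase gene Rag2 and the cytokine gene Il12a fell, Il7r, Cd22, Blnk and Notch1 rose, and Foxo1 rose by the smallest amount. Thus 5 genes were higher and 2 lower, in 4 of 4 pairs each, and for each gene the untreated and doxycycline libraries did not overlap. Of all 13406 genes, 65.1% passed the same threshold (limma adjusted p under 0.05), 31.3% higher and 33.8% lower. Groups did not overlap for 60% of genes (28.9% higher, 31.1% lower), and 35.8% were higher and 38.9% lower in every pair. A count of 7 of 7 therefore stands beside a background in which most genes passed. The same background applies to the counts of marker genes above and of gene lists below. The median change of the 7 genes was 0.85 on the log2 scale, beside -0.03 over all genes. Genes low in every library were left out of the deposited table, where 13361 of 13406 genes exceeded 1 CPM in at least 2 libraries. Rag2 exceeded it only in untreated libraries, and Cd22 in 1 untreated and in the 4 doxycycline libraries, so their place in the table depends on the group in which they were high.

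**Figure D1:**
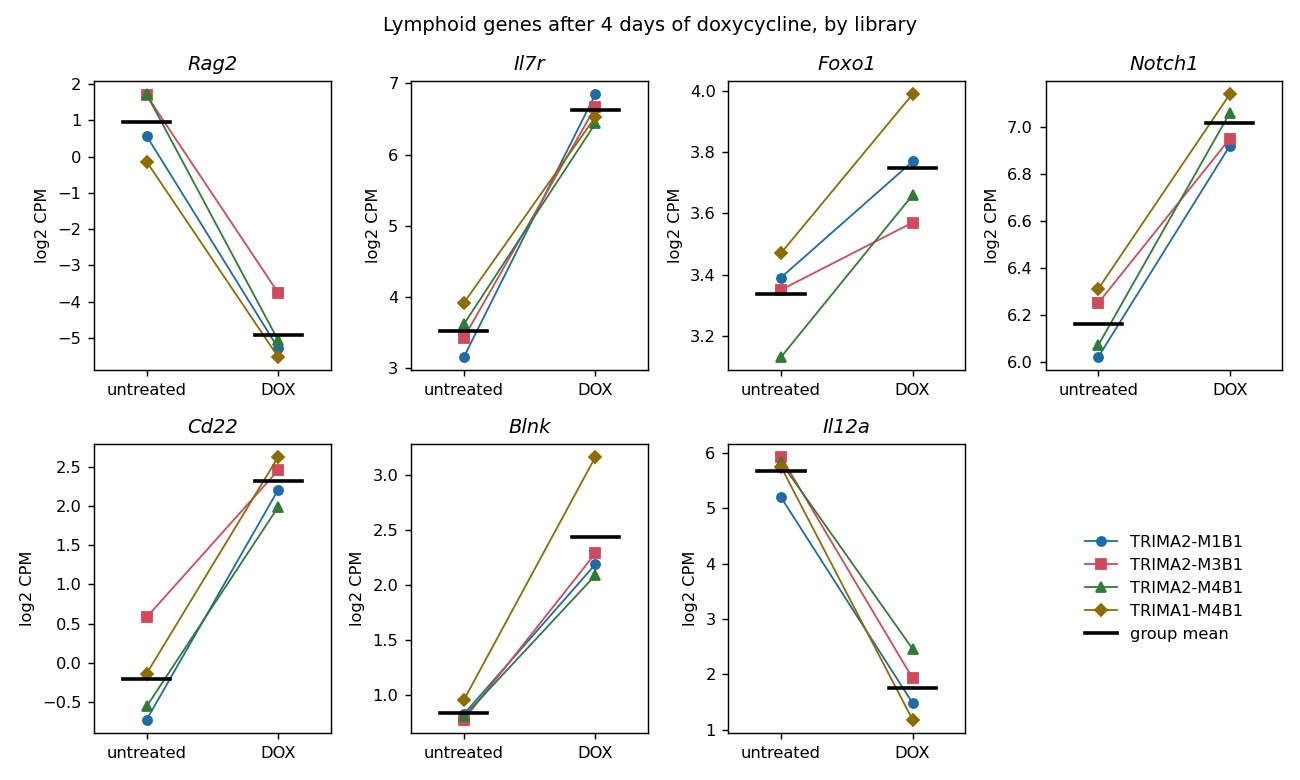
Deposited log2 CPM (vertical axis, a log scale that differs between panels) of the 7 lymphoid genes in 4 untreated and 4 doxycycline (DOX) libraries. Each coloured line joins the libraries of 1 pair label and black bars are group means; Rag2 and Il12a are lower and the other 5 genes higher in 4 of 4 pairs.

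Rag2 (chromosome 2, 101624718 to 101632529, plus strand, GRCm38) had 35, 74, 65 and 19 reads in the untreated libraries of pairs 1 to 4 and 0, 1, 0 and 0 reads in doxycycline. The untreated level was 1.46, 3.21, 3.27 and 0.883 CPM, a mean of 2.21 ± 1.22 CPM (SD, n = 4). It was low in each untreated library and close to absent after doxycycline, where a count of 0 allows up to 3 reads, or 0.13 to 0.179 CPM in the 3 libraries concerned. Over the groups, 193 reads stood against 1, a ratio of 174 per scaled library size with a 95% interval of 30.9 to 6920 that covers counting error only. The limma change was -5.87 ± 0.58 (SE) on the log2 scale (adjusted p = 1.8e-05), and its size depends on the 0.5 reads added to each count. In the fit that leaves out genes with a mean log2 value under 1, Rag2 gave no value. Rag2 shares 208 exon bases with B230118H07Rik on the opposite strand, and the sources state no strand, so reads of both cannot be told apart there.

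The list of V(D)J recombination and end joining named 12 genes, of which 9 were listed, and 3 rose, 5 fell and 1 did not pass, with a median change of -0.61. Those that fell beside Rag2 included Xrcc6, the Ku70 end-binding subunit (58.4 ± 2.27 to 31.4 ± 1.22 CPM, n = 4 each), and Prkdc, the DNA-dependent kinase (-0.62 ± 0.06 on the log2 scale). Hmgb1 and Hmgb2, chromatin proteins that assist the recombinase, fell by 0.74 ± 0.06 and 0.61 ± 0.06 on the log2 scale. These 4 genes are expressed in most dividing cells, whatever their lineage. With reads scaled by library totals alone, the counts for this list were 0 higher and 6 lower. At that scaling 2702 of all 13406 genes were higher and 6912 lower. The list of lymphoid progenitor genes, which also holds Rag2, Il7r and Notch1, had 3 genes higher and 9 lower of 16 listed, with a median of -0.67. Beside both lists stand 31.3% higher and 33.8% lower over all genes with the authors' scaling. Mef2c (-1.27 ± 0.07), Ikzf1 (-0.68 ± 0.07) and Sox4 (-2.1 ± 0.26), transcription factors of early lymphoid cells, fell.

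Il7r (chromosome 15, 9505788 to 9530176, minus strand) went the other way. It was at 8.92, 10.7, 12.3 and 15.2 CPM in the untreated libraries of pairs 1 to 4 and at 115, 102, 86.7 and 92.7 CPM in doxycycline. The lowest doxycycline library stood far above the highest untreated one, and the pair that began lowest ended highest. Group means were 11.8 ± 2.64 and 99.1 ± 12.4 CPM (SD, n = 4), from 1032 and 7924 reads. The change was 3.09 ± 0.15 on the log2 scale, or 8.51-fold (limma adjusted p = 4.66e-07), and the pairs gave 3.69, 3.24, 2.82 and 2.61.

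Around the receptor, 16 of 17 genes named for IL-7 receptor signalling were listed. Counting Il7r itself, 8 rose, 3 fell and 5 did not pass, with a median change of 0.34. Over all genes, 31.3% were higher and 33.8% lower. Il2rg, the common gamma chain that completes the receptor, rose from 37.9 ± 3.46 to 83.8 ± 4.86 CPM, and Jak1, the kinase bound to IL7R, from 279 ± 14.5 to 396 ± 28.8 CPM. The survival factor Mcl1 rose by 1.02 ± 0.04 and Ptprc, the CD45 phosphatase of all leukocytes, by 1.01 ± 0.07. The 3 that fell were Bcl2, another survival factor (113 ± 22.5 to 56.0 ± 6.19 CPM), Stat5a (-0.37 ± 0.05) and Ptpn2 (-0.28 ± 0.06). Il2rg, Jak1, Mcl1 and Ptprc also work outside the IL-7 pathway, and in the same libraries 13 of 18 myeloid markers rose and 4 fell (above). Their part in these changes was not tested.

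Foxo1 (chromosome 3, 52268336 to 52353221, plus strand) was at 10.5, 10.2, 8.71 and 11 CPM untreated and at 13.6, 11.9, 12.6 and 15.8 CPM in doxycycline. The groups did not overlap, although the highest untreated and the lowest doxycycline library were close. Means were 10.1 ± 0.984 and 13.5 ± 1.73 CPM (SD, n = 4), a change of 0.41 ± 0.11 (limma adjusted p = 0.00814), with pair values of 0.38, 0.22, 0.53 and 0.52. Scaled by library totals alone, the change was 0.17 (adjusted p = 0.145), so its call depended on the scaling. Foxo1 shares 674 exon bases with Gm20402.

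Of 28 genes named as FOXO factors and targets, 23 were listed, and 15 rose, 4 fell and 4 did not pass, with a median change of 0.28. With library totals 9 rose and 5 fell. Over all genes, 31.3% were higher and 33.8% lower with the authors' scaling, and with library totals 2702 of 13406 rose and 6912 fell. Klf2, a trafficking factor of naive lymphocytes, rose by 1.96 ± 0.11, Bcl6, a repressor of germinal centre B cells, by 1.60 ± 0.09, and Bcl2l11, the death gene BIM, by 1.36 ± 0.11. Il7r and Rag2, both known FOXO1 targets, moved in opposite directions. Of 18 genes of the AKT pathway that holds FOXO factors in the cytoplasm, 11 rose and 4 fell with the authors' scaling, and 4 rose and 7 fell with library totals. Pik3r5, a regulatory subunit of PI3-kinase gamma, rose by 1.75 ± 0.07, whereas Sgk3, an AKT-related kinase, and Pik3r1, the p85 alpha subunit, fell by 0.82 ± 0.06 and 0.48 ± 0.05.

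Notch1 (chromosome 2, 26457903 to 26516663, minus strand) was at 64.9, 76.3, 67.1 and 79.5 CPM untreated and at 121, 123, 133 and 141 CPM in doxycycline. The ratio of the highest to the lowest library was 1.23 in untreated and 1.16 in doxycycline libraries. The means of 72.0 ± 7.05 and 130 ± 9.12 CPM (SD, n = 4) gave a change of 0.85 ± 0.08 (limma adjusted p = 1.01e-05), and the pairs 0.90, 0.69, 0.99 and 0.82. Notch1 shares 1068 exon bases with 0610009E02Rik and 414 with Gm13568.

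Of 28 genes for Notch ligands, receptors and processing, 24 were listed, and 15 rose, 4 fell and 5 did not pass, with a median of 0.29. With library totals 11 rose and 7 fell. The receptor Notch2 rose by 1.12 ± 0.10 on the log2 scale to 369 ± 37.2 CPM, the gamma-secretase subunits Aph1c and Psen2, which cut the receptor, by 2.24 ± 0.11 and 1.21 ± 0.06, and Lfng, a glycosyltransferase that tunes ligand choice, by 1.56 ± 0.12. Aph1c has a close relative in Aph1b, and how the counting split their reads is uncertain. Of 20 listed genes of the nuclear side of the pathway 6 rose, 7 fell and 7 did not pass, with a median of -0.09, beside 31.3% higher and 33.8% lower over all genes. With library totals 4 of the 20 rose and 12 fell, where over all genes 2702 rose and 6912 fell. Rbpj, the factor that Notch binds in the nucleus, rose from 180 ± 22.5 to 423 ± 26.3 CPM, and the corepressor Tle3 by 0.53 ± 0.05, whereas the corepressor Tle1 fell from 20.4 ± 1.42 to 6.15 ± 1.11 CPM. Of other genes in this list, Nrarp fell from 1.88 ± 0.231 to 0.284 ± 0.172 CPM. Hes6 (-0.60 ± 0.08) and Dtx4 (-0.60 ± 0.12) fell as well, and Dtx2 (0.27 ± 0.08) rose.

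Cd22 (chromosome 7, 30865402 to 30880342, minus strand) rose from few reads. It had 14, 34, 13 and 19 reads untreated and 90, 111, 66 and 143 in doxycycline, which are 0.583, 1.47, 0.655 and 0.883 CPM against 4.59, 5.46, 3.93 and 6.18 CPM. The groups lay well apart, and the untreated library of pair 2 was the highest of its group. Means were 0.899 ± 0.404 and 5.04 ± 0.984 CPM (SD, n = 4), a change of 2.53 ± 0.29 (limma adjusted p = 4.32e-05). Cd22 shares 479 exon bases with Gm29439.

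Blnk (chromosome 19, 40928927 to 40994535, minus strand) had 42, 39, 34 and 41 reads untreated and 89, 99, 71 and 208 in doxycycline. The levels were 1.75, 1.69, 1.71 and 1.91 CPM, then 4.54, 4.87, 4.23 and 8.99 CPM. The untreated libraries were alike, and the doxycycline library of pair 4, the only pair labelled TRIMA1, was the highest of all 8. Means were 1.76 ± 0.0978 and 5.66 ± 2.24 CPM (SD, n = 4), a change of 1.60 ± 0.23 (limma adjusted p = 1.86e-04). The pairs gave 1.37, 1.52, 1.29 and 2.22, so Blnk rose in the other 3 pairs too.

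Of 30 genes named as B-cell receptor adaptors and signalling, 27 were listed, and 19 rose, 3 fell and 5 did not pass, with a median of 0.68 beside -0.03 over all genes. Rasgrp3, an activator of RAS, rose from 11.6 ± 2.07 to 53.2 ± 8.86 CPM, and Prkcd, protein kinase C delta, by 1.04 ± 0.06. Dapp1, an adaptor downstream of PI3-kinase, fell from 132 ± 5.77 to 47.3 ± 2.17 CPM. Cd79b, a chain of the B-cell receptor itself, was at 18.4 ± 6.16 and 14.8 ± 6.05 CPM. Its change of -0.35 had a limma adjusted p of 0.421, or 0.00529 with the replicate block. The other listed B-cell markers were higher: Bank1, also of this list, went from 2.25 ± 0.658 to 7.84 ± 0.737 CPM. Cd37, which is not of this list, rose by 0.34 on the log2 scale (limma adjusted p = 0.000256). Many of these adaptors also work in myeloid cells, of whose 18 listed markers 13 rose and 4 fell in the same libraries, and their part in the result was not tested.

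Of 15 genes for CD22, other sialic acid receptors and the enzymes that make their ligands, 12 were listed. Of these 6 rose, 1 fell and 5 did not pass, with a median of 0.68. Over all genes, 31.3% were higher and 33.8% lower. St6gal1, which adds the sialic acid that CD22 binds, rose from 6.16 ± 1.32 to 45.1 ± 8.65 CPM, and St3gal6, another sialyltransferase, by 2.49 ± 0.18. Siglec1, the sialoadhesin of macrophages, rose by 2.63 ± 0.29. Cmah, which turns the ligand into the form that mouse CD22 prefers, fell from 213 ± 14.4 to 85.2 ± 6.04 CPM.

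Il12a (chromosome 3, 68690644 to 68698547, plus strand) fell from a level far above that of Rag2. It was at 36.8, 60.9, 57.0 and 53.6 CPM untreated and at 2.75, 3.79, 5.48 and 2.25 CPM in doxycycline, from 4572 and 275 reads. No untreated library came near a doxycycline one. Means were 52.1 ± 10.6 and 3.57 ± 1.43 CPM (SD, n = 4), a change of -3.91 ± 0.27 (limma adjusted p = 1.83e-06). The pairs gave -3.73, -4.00, -3.37 and -4.56.

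Of 15 genes of the IL-12 family and its receptors, 11 were listed, and 6 rose, 1 fell and 4 did not pass, with a median of 0.44. Over all genes, 31.3% were higher and 33.8% lower. The gene of the list that fell was Il12a. Il27 (1.56 ± 0.421 to 7.65 ± 0.833 CPM) and Ebi3 (46.4 ± 4.58 to 89.4 ± 2.28 CPM), which encode the subunits of interleukin-27, rose, and Ebi3 also pairs with IL12A in interleukin-35. The receptor kinases Tyk2 and Jak2 rose by 0.46 ± 0.04 and 0.40 ± 0.05. Of the 6 listed genes of E proteins and their inhibitors, 2 rose and 3 fell: Tcf4 (-1.23 ± 0.08), Tcf3 (-0.54 ± 0.08) and Tcf12 (-0.27 ± 0.04) were lower, and Id2 (1.66 ± 0.13) was higher.

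**Figure D2:**
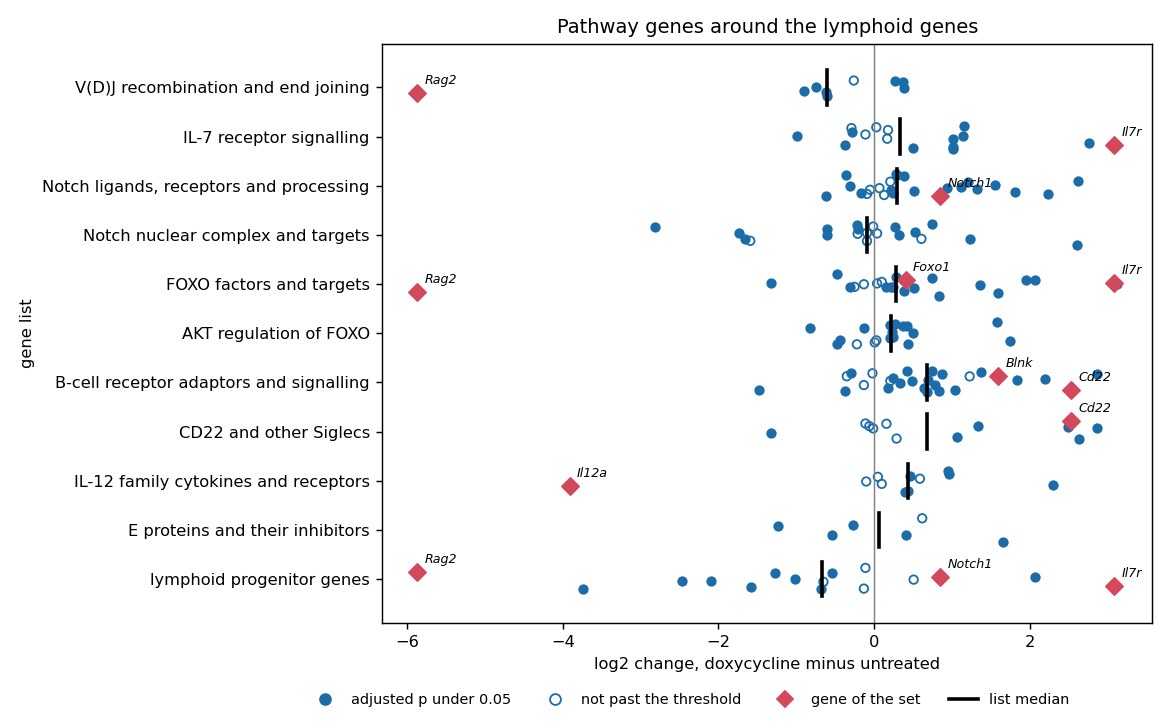
Log2 change (doxycycline minus untreated, horizontal axis) of each listed gene of 11 pathway lists (rows; vertical position within a row has no meaning). Filled points passed limma at an adjusted p under 0.05, open points did not, diamonds are the 7 lymphoid genes and black bars are list medians, which run from -0.67 for lymphoid progenitor genes to 0.68 for B-cell receptor adaptors and for CD22 and other Siglecs.

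The second comparison asked how the same genes stood 2 days after Id2 was added, without doxycycline. None of the 7 genes passed the threshold in the fit without pairs (limma adjusted p from 0.841 to 0.998). Il12a and Il7r were lower and Cd22 and Notch1 higher in 3 of 3 numbered pairs, while Rag2, Foxo1 and Blnk moved in both directions. In the fit with the replicate number as a block, Il12a passed (adjusted p = 0.0311) and the other 6 did not. Over all 14563 genes, 2 passed without the block (0.0137%), namely Id2 itself (5.18 ± 0.31) and the predicted gene Gm6175, named after its value was seen. An unadjusted limma p under 0.05 was seen for 357 genes (2.45%) without the block and for 914 (6.28%) with it. The fit without the block leaves out the pairing that the libraries show (below). Without Id2-GFP replicate 1 no gene was higher and Id2 had an adjusted p of 0.125, and without Id2-GFP replicate 3 the count was 1. With the block 35 passed (0.24%), 16 higher and 19 lower. All genes had a median change of -0.03, as did the 7 lymphoid genes.

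**Figure D3:**
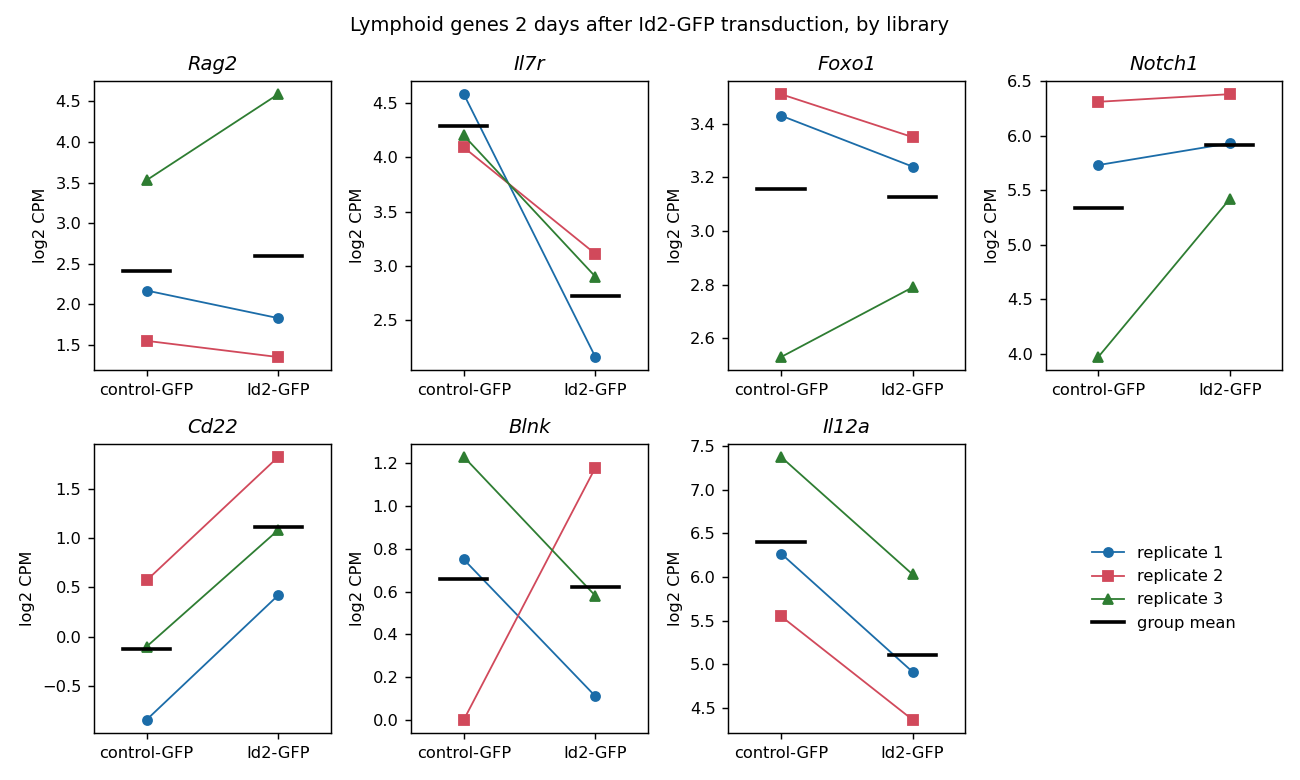
Deposited log2 CPM (vertical axis, a log scale that differs between panels) of the 7 lymphoid genes in 3 control-GFP and 3 Id2-GFP libraries. Each coloured line joins the libraries of 1 replicate number and black bars are group means; the lines of Il7r and Il12a all fall, those of Cd22 and Notch1 all rise, and those of Rag2, Foxo1 and Blnk go both ways.

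Il12a was at 77.4, 46.7 and 166 CPM in control-GFP replicates 1 to 3 and at 30.1, 20.6 and 65.3 CPM in Id2-GFP. The groups overlapped, because the level differed between replicate numbers more than between viruses, with replicate 3 highest and replicate 2 lowest in both groups. Within each number the Id2-GFP library was lower, by a near constant amount (-1.36, -1.18 and -1.35 on the log2 scale). Means were 96.8 ± 62.2 and 38.7 ± 23.6 CPM (SD, n = 3). The change of -1.30 had an SE of 0.55 without the block (limma adjusted p = 0.998) and of 0.18 with it (adjusted p = 0.0311, 95% interval -1.70 to -0.90). A fall in 3 of 3 pairs was seen for 14.6% of all genes.

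Il7r was at 23.9, 16.9 and 18.3 CPM in control-GFP and at 4.44, 8.57 and 7.42 CPM in Id2-GFP replicates 1 to 3, from 855 and 298 reads. It was the only one of the 7 whose groups did not overlap, a pattern that 6.95% of all genes showed (3.77% lower, 3.18% higher). Means were 19.7 ± 3.71 and 6.81 ± 2.13 CPM (SD, n = 3), a change of -1.57 ± 0.30 with a 95% interval of -2.27 to -0.87. Its adjusted p was 0.841 in limma without the block and 0.0787 with it, so the difference missed the threshold in both fits. The pairs gave -2.42, -0.98 and -1.30. Il2rg, the partner chain, was at 49.3 ± 24.2 and 51.3 ± 14.9 CPM.

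Cd22 had 8, 21 and 12 reads in control-GFP and 20, 50 and 30 in Id2-GFP replicates 1 to 3, or 0.526, 1.45 and 0.893 against 1.30, 3.48 and 2.08 CPM. The groups overlapped slightly, and each Id2-GFP library stood above its own control by a like amount (1.26, 1.24 and 1.19). The change was 1.23, with a 95% interval of -0.02 to 2.47 and a limma adjusted p of 0.998, or 0.365 with the block. A rise in 3 of 3 pairs was seen for 12.8% of all genes. All 14563 genes deposited for this experiment exceeded 1 CPM in at least 2 libraries. Cd22 exceeded it in the 3 Id2-GFP libraries but in only 1 control-GFP library, so its place there depends on the group in which it was high.

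Notch1 was at 52.9, 79.4 and 15.6 CPM in control-GFP and at 60.9, 83.1 and 42.7 CPM in Id2-GFP. Control-GFP replicate 3, the library that stood apart, was the lowest, and its pair gave 1.45, against 0.20 and 0.07 in the others. The change of 0.57 (95% interval -0.75 to 1.90, adjusted p = 0.998) became -0.11 without that library.

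Rag2 had 68, 42 and 155 reads in control-GFP and 54, 36 and 346 in Id2-GFP, or 4.47, 2.90 and 11.5 against 3.52, 2.51 and 24.0 CPM. Both replicate 3 libraries were high, and the pairs gave -0.34, -0.21 and 1.05. The change of 0.17 had a 95% interval of -1.88 to 2.21, so at this spread neither a large rise nor a large fall could be told from none, and it was -0.83 without Id2-GFP replicate 3.

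Foxo1 was at 10.7, 11.3 and 5.73 CPM in control-GFP and at 9.40, 10.2 and 6.87 CPM in Id2-GFP, lowest in both replicate 3 libraries. Its change was -0.03 with a 95% interval of -0.79 to 0.73, and it was 0.15 without control-GFP replicate 2. Blnk had 25, 14 and 31 reads in control-GFP and 16, 32 and 21 in Id2-GFP, and its pairs gave -0.64, 1.18 and -0.65. Its change was -0.04 with a 95% interval of -1.14 to 1.06, at a depth of 70 and 69 reads per group, and it was 0.25 without control-GFP replicate 3.

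Of the genes in the 11 pathway lists, Id2 alone passed without the block, and with it Il12a as well. The myeloid markers summed to 3990 to 6100 CPM in control-GFP and 3750 to 5670 CPM in Id2-GFP libraries, and the B-cell markers to 225 to 351 and 270 to 325 CPM. These ranges overlapped in both cases. No gene of the myeloid and plasmacytoid lists passed without the block (0 of 18 and 0 of 9 tested). With it 1 of each was lower, Mpo (-1.74, limma adjusted p = 0.0359 with the block and 0.998 without) and Pacsin1 (-3.43, adjusted p = 0.000702 and 0.537), and their part in the Il12a values was not tested. Il12a and Il7r thus gave the log2 values -3.91 and 3.09 in the doxycycline experiment and -1.30 and -1.57 in the Id2 experiment, and Cd22 2.53 and 1.23. In the same order Rag2 gave -5.87 and 0.17, Notch1 0.85 and 0.57, Foxo1 0.41 and -0.03, and Blnk 1.60 and -0.04. Of the Id2 values only that of Il12a passed the threshold, and only with the block. The experiments were normalized apart and the differences between these values were not tested.

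**Figure D4:**
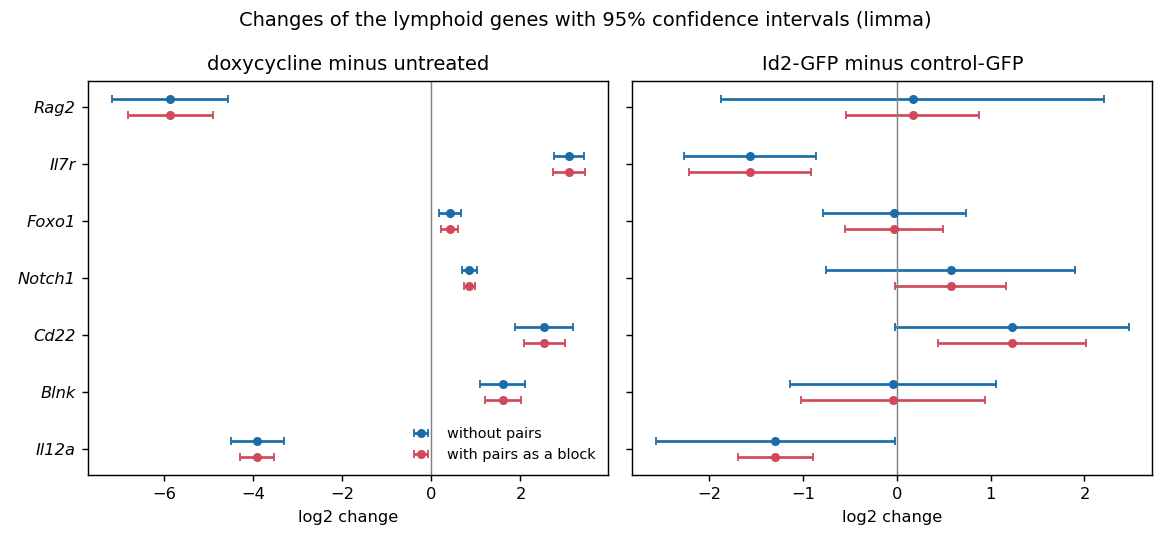
Log2 change (horizontal axes, with different ranges) of the 7 lymphoid genes in the doxycycline (left) and Id2 (right) experiments, with 95% confidence intervals from limma without pairs (blue) and with pairs as a block (red). On the left no interval includes 0. On the right the intervals of Il7r and Il12a lie below 0 in both fits, that of Cd22 lies above 0 with the block, and those of the other 4 genes include 0. The intervals are per gene and not adjusted for the number of genes tested. By adjusted p, only Il12a with the block passed on the right.

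Levels were compared between genes as CPM per kilobase of annotated exons. In untreated cells the order was Il12a (30.6 ± 6.24, SD, n = 4), Notch1 (5.06 ± 0.495), Il7r (2.53 ± 0.566), Foxo1 (1.16 ± 0.114), Rag2 (0.644 ± 0.356), Blnk (0.295 ± 0.0163) and Cd22 (0.178 ± 0.080). Rag2 overlapped Blnk and Cd22, and Blnk overlapped Cd22, whereas the genes above Rag2 were apart from their neighbours. In doxycycline Il7r led (21.2 ± 2.66), then Notch1 (9.11 ± 0.641), Il12a (2.1 ± 0.84), Foxo1 (1.55 ± 0.20), Cd22 (1.00 ± 0.195), Blnk (0.945 ± 0.373) and Rag2 (0.00359 ± 0.00718). There Il12a overlapped Foxo1, and Blnk overlapped Foxo1, Cd22 and Il12a. In control-GFP cells Il12a was again the highest (56.9 ± 36.6, n = 3), and Cd22 (0.190 ± 0.0925) and Blnk (0.274 ± 0.112) the lowest. In Id2-GFP cells Il12a (22.7 ± 13.9) stayed above Notch1 (4.37 ± 1.42), and Il7r (1.46 ± 0.458) overlapped Foxo1 (1.02 ± 0.199).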

How the data were processed

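RNA was sequenced from 400 ng of total RNA with a TruSeq V2 kit, per the labels' protocols, which give no strand. The build mm10 and the tools CASAVA 1.8.2, limma, HTSeq and TopHat2 are named in the submitters' processing notes. The authors deposited log2 values for each experiment in a table of its own, per the file headers. Removing 0.5 reads from these log2 CPM gave whole reads for 100% of values (within 0.01 read), at scaling factors of 0.891 to 1.101 in the doxycycline and 0.913 to 1.026 in the Id2 experiment.

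Each table was tested with limma 3.58.1 (R 4.3.3, eBayes with a trend, two-sided, Benjamini-Hochberg over 13406 or 14563 genes, threshold 0.05), group against group. The fit was run on simulated data without pairs and with the same extra spread for all genes. That run does not show how well the fit does on these paired libraries. Changes are on the log2 scale of the deposited values, which understates those of low genes. The block on pair labels was an alternative, and the doxycycline counts of lists and markers come from the fit without it. With the block, 69.6% of all genes passed in that experiment instead of 65.1%. Of the B-cell receptor adaptor list 21 then rose and 4 fell, instead of 19 and 3. Of the 18 myeloid markers 13 rose and 5 fell, instead of 13 and 4. Same-labelled libraries deviated together from their group means (r 0.45 to 0.55 over 4 pairs, 0.47 to 0.58 over 3; other pairings at most -0.01), so the labels pair the samples, as read from the data. Nothing says that replicates came from separate animals, so p-values reflect only how far these samples spread, possibly for technical reasons.

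The genes, the 11 pathway lists and the 6 marker lists were chosen with earlier results of these data known. Beside the lymphoid genes, the text names up to 4 genes per list with the smallest p among those past the threshold, the E-protein genes, Mll1, Mllt3 and Id2, and, in the closing section, the 3 genes most like each gene. Some genes given by this rule are not reported here. Cd79b, Il2rg in the Id2 experiment, Gm6175 and the single marker genes were named after their values were seen. So were Bcl2, Stat5a and Ptpn2 of the IL-7 list and Nrarp, Hes6, Dtx4 and Dtx2 of the Notch list. Coordinates and exon lengths are from GENCODE M21 (GRCm38), and promoters from RefSeq (GRCm38.p6), where 7 of 8 symbols matched. Alternatives were other scalings (library totals, median of ratios, quantile), no trend, voom weights, 2 added reads, a floor on low values and leaving out libraries.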

Additional observations from a re-analysis of the deposited data

How the results depend on the processing

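In the doxycycline experiment 166 of 167 values of the 7 lymphoid genes kept their direction and their side of the threshold, as did the 1080 values of the 45 other genes that the naming rule gave. The exception was Foxo1 with library totals (0.17, adjusted p = 0.145). There 2702 genes were higher and 6912 lower, so 28.1% of calls were higher instead of 48.1%, and the median of all genes was -0.27 instead of -0.03. Rag2 in doxycycline, and Cd22 and Blnk in the Id2 experiment, gave no value with a mean log2 value of at least 1.

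In the Id2 experiment the replicate block moved the count of genes past the threshold from 2 to 35 (16 higher, 19 lower), both of the 2 among them, and Il12a to an adjusted p of 0.0311 at the same -1.30. It changed no other call of the lymphoid genes in either experiment. With a mean log2 value of at least 1, 1 gene passed and it was higher. Foxo1 turned to 0.025 with library totals and 0.003 with median-of-ratios factors, and Blnk to 0.015 with library totals. Leaving out 1 library, or both of a number, gave 0 to 3 genes past the threshold (0 to 2 higher, 0 to 1 lower). The same gave Rag2 -0.83 to 0.79, Foxo1 -0.34 to 0.15, Blnk -0.65 to 0.27 and Notch1 -0.11 to 1.06. Tcf3 ranged from -0.13 to 0.029, Tcf12 from -0.052 to 0.43, Mll1 from -0.47 to 0.72 and Mllt3 from -0.65 to 0.14.

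The block without both libraries of a number, chosen after seeing the data, leaves 1 residual degree of freedom, and limma then takes the spread from other genes, so its p-values say little about these samples. In the Id2 experiment without numbers 1, 2 and 3 it gave 95, 171 and 468 genes past the threshold (64, 114 and 253 higher, 31, 57 and 215 lower). Il12a was then -1.27, -1.36 and -1.27, each past the threshold, and Il7r -1.86 and -1.70 past it without numbers 2 and 3. Foxo1 turned to 0.052 and 0.035 without numbers 1 and 2, Blnk to 0.26 and 0.27 without 1 and 3, and Rag2 to -0.28, Tcf12 to -0.033 and Mll1 to -0.24 without 3. Low reads limit Cd22 and Blnk in the Id2 experiment (41 to 100 reads per group) and Rag2 after doxycycline.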

Other observations

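The genes whose log2 values followed each lymphoid gene most closely are given as a description over all libraries of a table, which fall into 2 groups, so any gene that parts the groups scores high. Over the 8 doxycycline-experiment libraries, Il7r was followed by Necap1 (Pearson r 0.999), Evi2a (0.999) and Rufy3 (0.998), and Notch1 by Ahnak, its paralog Notch2 and Ctse (0.995 each). Rag2 was followed by Tap2 (0.998), Stmn1 (0.998) and Nap1l1 (0.997), and Il12a by Bag2, Hdgf and Arglu1 (0.996 each). Cd22 was followed by Slc15a4 (0.996), Fam105a (0.996) and Fam69a (0.995), Blnk by Ndst2 (0.995), Smad4 (0.992) and Solh (0.992), and Foxo1 by Sp3 (0.988), Dpy19l4 (0.985) and Fam101b (0.984).

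Over the 6 libraries of the Id2 experiment other genes led. Il12a was followed by Tdp2 (0.993), Il21r (0.989), the receptor chain of interleukin-21, and Slc30a6 (0.988), and Il7r by Hpse (0.987), Iffo1 (0.981) and Meaf6 (0.964). Cd22 was followed by Mmp8 (0.995), Rin2 (0.989) and Aaed1 (0.984), Rag2 by Hrh2 (0.994), Wipi2 (0.992) and Dusp16 (0.989), and Notch1 by Flna (0.999), Ankrd50 (0.999) and Nhsl2 (0.998). Foxo1 was followed by Myo1d (0.996), Rpap1 (0.995) and Man2b2 (0.995), and Blnk by Lace1 (0.985), Spata7 (0.98) and Srrd (0.97). For Rag2, Notch1 and Foxo1 the replicate 3 libraries stood at one end of the range.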
